A study of Mus musculus with 6 samples.

Results

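The genes described here make and remove superoxide: the superoxide dismutases Sod1, Sod2 and Sod3, and Nox4, Cyba, Rac1 and Poldip2, which encode parts or partners of NADPH oxidases. These 7 genes were chosen by symbol from the 12389 genes of the deposited table, and all 7 were present and passed the filter on low values (10 or more scaled reads in 3 or more libraries). Superoxide is a short-lived radical formed when oxygen takes up a single electron. NADPH oxidases form it at membranes by passing electrons from NADPH to oxygen, and superoxide dismutases turn it into hydrogen peroxide and oxygen. In arteries, superoxide consumes nitric oxide, the relaxing signal of the endothelium, and the extracellular dismutase SOD3 is made largely by smooth muscle and held on the matrix between the cells.

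Poly(A) RNA was sequenced from smooth muscle cells of the mouse thoracic aorta, which contract the artery wall, after explant culture to at most passage 6 with no treatment. The 6 libraries are 3 of wild-type (WT) cells and 3 of cells from mice with a smooth muscle-specific LRRC8A knockout (KO). LRRC8A is the subunit that volume-regulated anion channels cannot do without. The submitters called the libraries of a group independent biological replicates. The sources used here do not give the Cre driver, the deleted exons, strain, age or sex. Groups rest on the sample titles, because the genotype label of the KO samples also says wild type. LRRC8A has been reported to associate with the oxidase NOX1 in vascular smooth muscle. Nox1 itself was not analysed here.

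Values are scaled reads as deposited: estimated reads divided by a factor for each library, and the libraries hold an estimated 31.0 to 47.8 M reads each. They are listed in the order of replicates 1 to 3. Differences are KO minus WT on the log2(value + 2) scale from limma, with two-sided p-values adjusted by Benjamini-Hochberg over the 12363 genes tested. limma called 0 genes at an adjusted p of 0.05 (0% of those tested), with 447 (3.62%) at an unadjusted p under 0.05, or 917 with the replicate number as a block. Lrrc8a itself was at 2578, 2194 and 1221 scaled reads in WT against 868, 672 and 506 in KO, without overlap. Its log2 difference was -1.51 (SE 0.34), with an unadjusted p of 0.00291 and an adjusted p of 0.999 in limma. The main limma fit thus did not call the targeted gene either, while its false discovery rate in the authors' deposited table was 0.0196. Of 8 smooth muscle markers, 6 lay below 0 in log2 difference and 2 above (median -0.44), and all overlapped between the groups. Acta2 was at 10651, 13083 and 130984 scaled reads in WT against 18724, 21829 and 59317 in KO. Myh11 was at 90.1, 152 and 1656 in WT against 41.7, 20.8 and 96.8 in KO. Both were highest in WT replicate 3. All 7 fibroblast markers were tested, and 5 of them lay below 0 in log2 difference. Among these, Lum, Dpt and Cd34 also had a lower mean of scaled reads in KO. Dcn and Pi16 had a higher one, at 17475 in KO against 11124 in WT and 307 against 227. KO replicate 3 was the lowest library for both Dcn and Pi16. The 7 summed to values that ranged from 118976 to 154531 scaled reads in WT and from 161072 to 211646 in KO. Most of each sum was Col1a1, at 96639 to 117469 in WT and 119121 to 194742 in KO. Col1a1, higher in KO, was the only fibroblast marker whose groups did not overlap, as was so in either direction for 8.43% of all genes tested. The mitochondrial transcripts made up 1.82% to 7.13% of values in WT and 2.37% to 6.41% in KO.

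Sod3, which encodes the secreted copper and zinc dismutase, was the one gene of the 7 whose KO and WT libraries did not overlap, as was so for 8.43% of all genes tested. Its level was 28605, 15164 and 10302 scaled reads in WT against 2445, 3704 and 4346 in KO. Every KO library was lower than every WT library, and the lowest WT library was 2.37 times the highest KO library. Means were 18024 ± 9481 scaled reads (SD, n = 3) for WT and 3498 ± 967 (SD, n = 3) for KO. On the log2 scale the difference was -2.27 (SE 0.41, 95% confidence interval -3.24 to -1.31), which is a level 4.84-fold lower in KO. By same-numbered libraries the log2 differences were -3.55, -2.03 and -1.24. The WT libraries were themselves spread 2.78-fold and the KO libraries 1.78-fold, with replicate 1 the highest in WT and the lowest in KO.

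**Figure D1:**
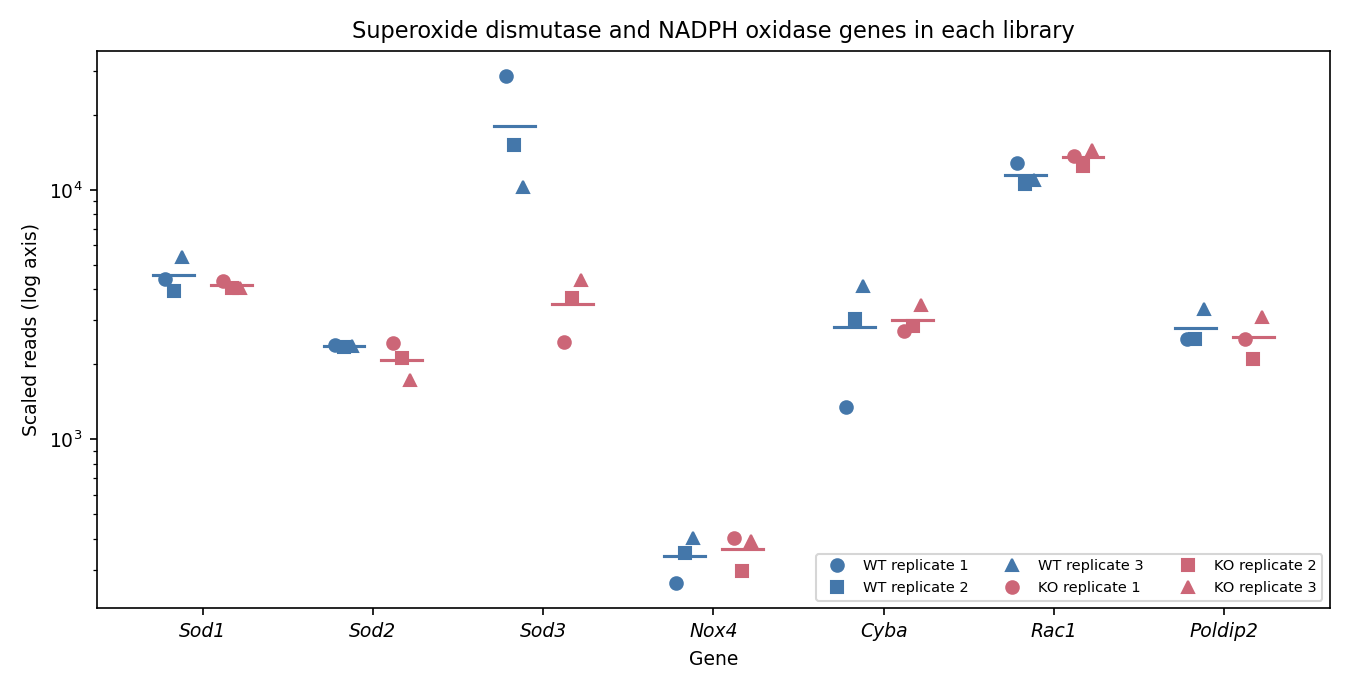
Scaled reads on a log axis for the 7 genes in each library; blue points are WT, red points KO, marker shapes the replicate numbers and bars the group means. The WT libraries of Sod3 lie between 10302 and 28605 and its KO libraries between 2445 and 4346, while WT and KO points overlap for the other 6 genes.

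In limma, Sod3 had an unadjusted p of 0.000793 and an adjusted p of 0.980, and did not pass. An exact two-sided permutation test over the 6 libraries gave p = 0.1, the lowest that this test can give; it exchanges libraries freely and does not use the pairs of replicate numbers. The authors' deposited table has Sod3 in the same direction: the log2 ratio was -2.37 and the false discovery rate (FDR) 4.52e-05, which ranked 11 among 12389 genes. The authors' deposited table places 0.412% of its genes at an FDR under 0.05 and lower in KO, and Sod3 is the only one of the 7 genes among them. By limma, 2.15% of genes tested were lower in KO at an unadjusted p under 0.05, and 4.51% had every KO library below every WT library. With library quality weights Sod3 passed in limma at an adjusted p of 0.0360. These weights were uneven, 7.99 for WT replicate 2 against 0.361 to 1.97 for the other libraries, and their estimation stopped before it converged. With weights and the replicate number as a block the adjusted p of Sod3 was 0.185, and with the block alone 0.420. Without WT replicate 1, the highest library, the log2 difference was -1.88.

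Markers of other cell types are given beside this result, and none of them passed in limma. The 3 tested of 11 leukocyte markers all lay below 0 in log2 difference. Of these, only Lyz2 had every KO library below every WT library, as was so for 4.51% of all genes tested. The 3 markers summed to 1233 to 1594 scaled reads in WT and 392 to 1197 in KO. Ptprc, Adgre1 and Itgam were not analysed here. The adipocyte marker Fabp4 was at 1427, 153 and 28.5 scaled reads in WT against 66.3, 25.4 and 17.8 in KO, with overlapping groups and the other 4 markers of its list not tested. The 5 tested of 8 epithelial and mesothelial markers summed to 5562 to 9936 in WT and 1098 to 6769 in KO. All 5 overlapped between the groups, 3 lying below 0 in log2 difference and 2 above it, Krt19 (1.16) and Cdh1 (1.47). Of the endothelial markers Kdr alone was tested, at 21.3 to 433 scaled reads over the 6 libraries. The part of other cells in the Sod3 difference was not tested, and in bulk RNA fewer cells of a type and less RNA per cell cannot be told apart.

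Sod3 lies on GRCm38 chromosome 5, 52363791 to 52371418, on the plus strand (ENSMUSG00000072941), with no other annotated gene overlapping it. SOD1 and SOD3 are related enzymes, so the coding sequences of GENCODE M21 transcripts were compared to see whether reads of one could be counted for the other. The longest run of bases shared by the coding sequences of Sod1 (462 bases) and Sod3 (753 bases) was 10 bases. It is printed in capitals below with its flanks, from base 333 to 382 of the Sod1 coding sequence and from base 555 to 604 of that of Sod3.
Sod1: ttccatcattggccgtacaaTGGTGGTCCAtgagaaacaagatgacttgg
Sod3: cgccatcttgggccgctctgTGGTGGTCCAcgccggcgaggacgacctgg
No stretch of 50 bases of the Sod3 transcript (0%) occurred in a transcript of any other gene on either strand.

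Sod1 encodes the copper and zinc dismutase of the cytosol and Sod2 the manganese dismutase of the mitochondrial matrix. Sod1 (ENSMUSG00000022982, chromosome 16, 90220754 to 90226329) was at 4388, 3938 and 5381 scaled reads in WT against 4332, 4051 and 4039 in KO. The groups overlapped, with WT replicate 3 above the rest, and the log2 difference was -0.13 (SE 0.19, 95% confidence interval -0.59 to 0.32). Sod2 (ENSMUSG00000006818, chromosome 17, 13006846 to 13040063) was at 2388, 2343 and 2372 scaled reads in WT against 2424, 2112 and 1727 in KO. Its WT libraries lay within 1.02-fold of each other, KO replicate 1 stood above them and the other KO libraries below. The log2 difference of Sod2 was -0.20 (SE 0.19, 95% confidence interval -0.65 to 0.26). Neither passed in limma (adjusted p = 0.999 each), and the lower ends of the intervals are KO levels of 0.667 times WT for Sod1 and 0.637 times WT for Sod2. The Sod1 value carries some uncertainty, since 3.42% of its 50-base stretches also occur in the Sod1-like gene Gm8566. Scaf4 overlaps the end of Sod1 on the opposite strand, but their transcripts had no 50-base stretch in common. The Sod2 value carries more, since 21% of the 50-base stretches of its annotated exons also occur in transcripts of other genes, mainly AC166110.4 and Rps6ka2.

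Ratios between genes of the same library do not depend on library scaling. The Sod3 to Sod1 log2 ratio was 2.70, 1.94 and 0.94 in WT against -0.82, -0.13 and 0.11 in KO, a difference of -2.14. For Sod3 to Sod2 it was 3.58, 2.69 and 2.12 in WT and 0.01, 0.81 and 1.33 in KO, a difference of -2.08. Neither Sod3 ratio overlapped between the groups. The Sod2 to Sod1 log2 ratio was -0.88, -0.75 and -1.18 in WT against -0.84, -0.94 and -1.22 in KO, a difference of -0.065 with overlapping groups. Exact two-sided permutation tests gave p = 0.1 for both Sod3 ratios, again the lowest that test can give, and p = 0.6 for Sod2 to Sod1. Adjusted over the 6 ratios computed, these were 0.3, 0.3 and 0.96.

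Levels of different genes were compared per kilobase (kb) of the longest principal transcript of GENCODE M21. Per kb, Sod3 made up 51.3%, 38.3% and 23.9% of the summed dismutase transcripts in WT against 8.36%, 12.9% and 15.0% in KO. The share of Sod1 was 58.8% ± 13.4 in WT and 83.3% ± 2.70 in KO, and that of Sod2 3.34% ± 0.54 and 4.59% ± 0.75 (SD, n = 3 each). The summed dismutase level was 12354 ± 2261 scaled reads per kb in WT and 7752 ± 78.3 in KO, and the level of Sod3 went from 4822 ± 2536 to 936 ± 259. With the length of all annotated exons merged, chosen after seeing the data, Sod3 made up 75.1% ± 10.9 of the sum in WT and 42.3% ± 8.49 in KO, because the merged Sod1 exons come to 3970 bases against 641 for its principal transcript. Under both lengths the lowest WT share lay above the highest KO share. The order of Sod1 and Sod3 in WT turned with the length used, so it cannot be given from these values.

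**Figure D2:**
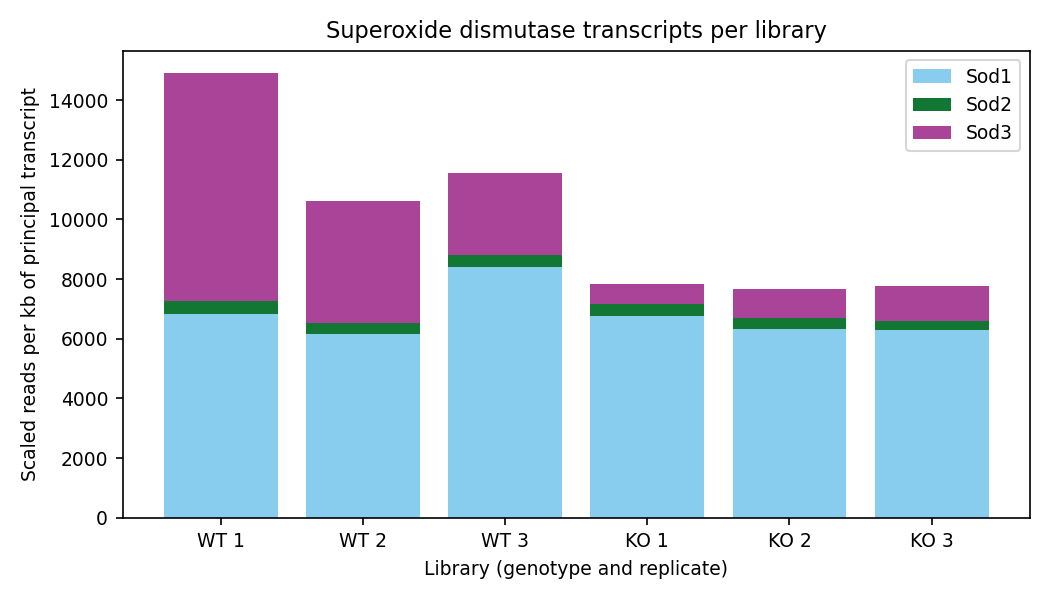
Stacked bars of scaled reads per kb of principal transcript for Sod1, Sod2 and Sod3 in each library (WT 1 to 3, KO 1 to 3). The Sod1 segments lie between 6144 and 8394 in all libraries, while the Sod3 segments go from 2756 to 7653 in WT and from 654 to 1163 in KO.

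Nox4 is a catalytic subunit that releases mainly hydrogen peroxide and is the oxidase most typical of quiescent smooth muscle. It lies on chromosome 7, 87246096 to 87398710 (ENSMUSG00000030562). It was at 267, 351 and 403 scaled reads in WT against 403, 297 and 391 in KO. The groups overlapped, with WT replicate 1 the lowest library. The log2 difference was 0.10 (SE 0.28, 95% confidence interval -0.55 to 0.75) and limma gave an adjusted p of 0.999. Without WT replicate 1 the sign turned, to -0.061. Per kb Nox4 was the lowest of the 7 genes in every library, at 90.7 ± 18.3 scaled reads per kb in WT against 96.9 ± 15.5 in KO (SD, n = 3 per group).

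Cyba encodes p22phox, the membrane partner that stabilises NOX4 and the other p22phox-dependent oxidases (ENSMUSG00000006519, chromosome 8, 122424776 to 122432930). It was at 1354, 3028 and 4100 scaled reads in WT against 2713, 2848 and 3472 in KO. WT replicate 1 was the lowest and WT replicate 3 the highest of all 6 libraries, so the KO libraries lay inside the WT range. The log2 difference was 0.22 (SE 0.40, 95% confidence interval -0.72 to 1.17) with an adjusted p of 0.999 in limma. Without WT replicate 1 the sign turned, to -0.24. Its WT spread was 3.03-fold, the widest of the 7 genes, against 1.28-fold in KO. The read-through gene model Gm20388 overlaps Cyba on the opposite strand, at 2341 to 2774 scaled reads in WT and 2149 to 3033 in KO. Of the 50-base stretches of Cyba 2.39% also occur in transcripts of other genes, and Gm20388 was not among the genes sharing most.

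Rac1 encodes the small GTPase that switches on NOX1 and NOX2 complexes and also steers the actin cytoskeleton, and NOX4 does not need it. Rac1 (ENSMUSG00000001847, chromosome 5, 143503634 to 143528036) was at 12857, 10532 and 10946 scaled reads in WT against 13721, 12438 and 14424 in KO. KO values were higher in all 3 same-numbered pairs, by log2 differences of 0.09, 0.24 and 0.40, but WT replicate 1 exceeded KO replicate 2. The log2 difference was 0.24 (SE 0.20, 95% confidence interval -0.23 to 0.72) with an adjusted p of 0.999 in limma. Of its 50-base stretches 50.3% also lie in transcripts of Daglb on the opposite strand. The sources used here do not say whether counting used strand, so reads of the 2 genes may have been mixed. Daglb had 680 to 1593 scaled reads in WT and 627 to 997 in KO.

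Poldip2 encodes a p22phox-binding protein known to raise NOX4 activity in vascular smooth muscle (ENSMUSG00000001100, chromosome 11, 78512193 to 78522736). It was at 2524, 2514 and 3322 scaled reads in WT against 2519, 2106 and 3106 in KO. Replicate 3 was the highest in each group and the groups overlapped. The log2 difference was -0.12 (SE 0.22, 95% confidence interval -0.65 to 0.41), with an adjusted p of 0.999 in limma and a sign that turned without WT replicate 3 (0.015) or KO replicate 2 (0.018). Set against Cyba, the Poldip2 to Cyba log2 ratio was 0.11 ± 0.68 in WT against -0.23 ± 0.18 in KO (SD, n = 3 per group). The Nox4 to Cyba ratio was -2.93 ± 0.53 and -3.05 ± 0.27, and that of Rac1 to Cyba 2.15 ± 0.97 and 2.17 ± 0.15 (SD, n = 3 each). Exact permutation tests over the libraries gave p = 0.7, 0.8 and 1, adjusted to 0.96, 0.96 and 1. In each ratio WT replicate 1, which had the lowest Cyba value, stood highest.

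**Figure D3:**
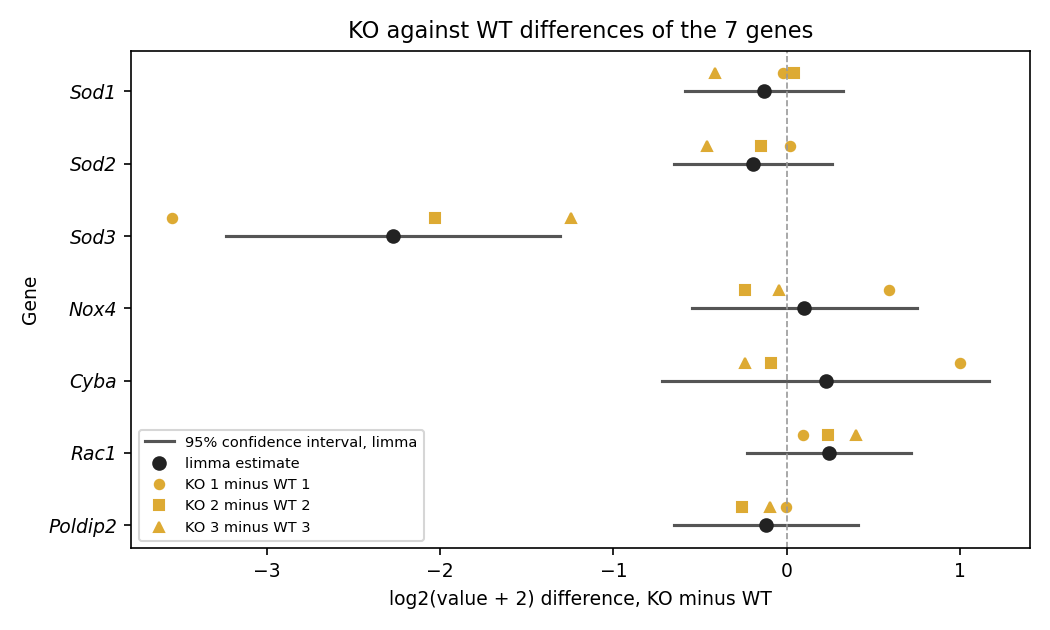
log2(value + 2) differences, KO minus WT, of the 7 genes; black points and lines are limma estimates with 95% confidence intervals and yellow points the same-numbered library pairs. The interval of Sod3 runs from -3.24 to -1.31, and the intervals of the other 6 genes span 0.

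Per kb of principal transcript, the mean levels of the other genes in WT were 7128 ± 1151 scaled reads per kb for Sod1, 3800 ± 1861 for Cyba, 2752 ± 298 for Rac1, 1357 ± 226 for Poldip2 and 404 ± 3.90 for Sod2 (SD, n = 3 each). In KO they were 6460 ± 259 for Sod1, 4047 ± 545 for Cyba, 3253 ± 242 for Rac1, 1255 ± 245 for Poldip2 and 356 ± 59.6 for Sod2 (SD, n = 3 each). The order of the upper 5 genes turned with the length used. By principal transcript the mean order was Sod1, Sod3, Cyba, Rac1 and Poldip2 in WT, which no single WT library had, and Sod1, Cyba, Rac1, Poldip2 and Sod3 in KO, which every KO library had. By merged exon length it was Sod3, Cyba, Rac1, Sod1 and Poldip2 in WT and Rac1, Cyba, Sod1, Sod3 and Poldip2 in KO. Sod2 and then Nox4 came last in both groups under both lengths. Among the 11258 genes with a principal transcript length, Sod3 stood at the 96.5th percentile of mean level per kb of that transcript in WT and at the 75.4th in KO. Cyba stood at the 95.1st and 95.7th, and Nox4 at the 12.2nd and 13.4th.

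Each gene was also set beside all others with a mean of at least 500 scaled reads, 8984 genes (8985 for Nox4), by Pearson correlation of log2 values over the 6 libraries. With so few libraries and so many genes, high values arise readily, and the points share library and genotype. The genes most like Sod3 were the fucosidase gene Fuca2 (r = 0.994) and Clptm1l (0.988). Fuca2 was at 4621, 3623 and 2691 scaled reads in WT against 1552, 1917 and 2070 in KO, the same order of libraries as Sod3 within each group over a smaller range. For Sod1 they were Cdv3 (0.994) and S100a13 (0.981), and for Sod2 Dnm1l (0.992), which encodes a mitochondrial fission GTPase, and Elovl1 (0.988). For Nox4 they were Josd2 (0.989) and Pfdn4 (0.977), and for Cyba Tsg101 (0.994) and Klhl26 (0.993). For Rac1 they were Irs1 (0.990) and Scnm1 (0.979), and for Poldip2 Rab5c (0.994) and Elof1 (0.992).

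Around these genes, 6 lists of the same chemistry were counted. Over all 12363 genes the median log2 difference was 0.00, with 6230 above 0 and 6133 below, and 0 members of any list passed an adjusted p of 0.05 in limma. Of 17 other NADPH oxidase genes, 3 were tested, with a median log2 difference of -0.33, and neither the catalytic subunits Nox1, Nox3 and Cybb nor the organizers Noxo1 and Ncf1 were analysed here. Cybc1, the chaperone of the NOX2 cytochrome, was at 2041, 1765 and 1965 scaled reads in WT against 1466, 1403 and 1727 in KO. Its groups narrowly did not overlap, as was so in that direction for 4.51% of all genes tested, at a log2 difference of -0.33 (SE 0.18) and an adjusted p of 0.999 in limma. The adaptors Sh3pxd2a (Tks5) and Sh3pxd2b (Tks4), which organise oxidases at invasive membrane sites, had differences of 0.07 (SE 0.28) and -0.47 (SE 0.25).

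Genes listed for the supply of copper and manganese, the metals of the dismutases, had a median log2 difference of -0.19 over 9 tested members. Of these, 8 lay below 0 and 0 had an unadjusted limma p under 0.05. Not every member is itself a carrier of these metals. The 3 list members with the highest values were the mitochondrial carrier Slc25a39 (-0.01, SE 0.27), the zinc and manganese importer Slc39a14 (-0.19, SE 0.36) and the divalent metal transporter Slc11a2 (-0.20, SE 0.32). The lowest log2 difference of the list was that of Slc39a8 (-1.45, SE 0.79), with overlapping groups. Genes that remove hydrogen peroxide, the product of the dismutases, or reduce thiols had a median of -0.08 over 22 members, 10 above and 12 below 0. Their 3 highest were the thioredoxin reductase Txnrd1 (-0.48, SE 0.44), the peroxiredoxin Prdx1 (-0.32, SE 0.28) and the sulfiredoxin Srxn1 (-0.67, SE 0.41).

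Gpx3, the secreted glutathione peroxidase, is like Sod3 an antioxidant enzyme released from the cell. It was at 2422, 5286 and 8395 scaled reads in WT against 2259, 536 and 67.6 in KO. The groups did not overlap, though narrowly between WT replicate 1 and KO replicate 1. The log2 difference was -3.44 (SE 1.23) at an unadjusted limma p of 0.0290, the one such member of 22 against 2.15% of all genes in that direction.

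Other sources of superoxide or hydrogen peroxide had a median log2 difference of -0.39 over 14 tested members, 10 of them below 0. Maob, a mitochondrial amine oxidase that forms hydrogen peroxide, was at 1088, 831 and 2285 scaled reads in WT against 159, 324 and 478 in KO. Its groups did not overlap, at a log2 difference of -2.12 (SE 0.51) and an unadjusted limma p of 0.00437. The highest of the list were the collagen crosslinking oxidase Lox (0.07, SE 0.46), xanthine dehydrogenase Xdh (-0.51, SE 0.43) and P4ha1 (-0.24, SE 0.22). P4ha1 encodes a prolyl hydroxylase subunit and was counted in the list although superoxide or hydrogen peroxide is not its main product. Regulators and effectors of Rac had a median of -0.01 over 20 tested members, 10 on either side of 0. The exchange factor gene Arhgef6 had a log2 difference of -1.01 (SE 0.34) at an unadjusted limma p of 0.0195, with no overlap. The Rac inhibitor Arhgdia had -0.03 (SE 0.28), Elmo2 0.32 (SE 0.24) and Trio 0.01 (SE 0.33). Genes of NADPH supply had a median of -0.11 over 11 gene models of 10 symbols, with Pgd at -0.38 (SE 0.24), Idh1 at 0.33 (SE 0.33) and Tkt at 0.31 (SE 0.23). Gpx3, Maob and Arhgef6 each missed an adjusted p of 0.05 in limma, at 0.999. In the authors' deposited table the FDR was 0.0233 for Maob, 0.898 for Gpx3 and 0.558 for Arhgef6.

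**Figure D4:**
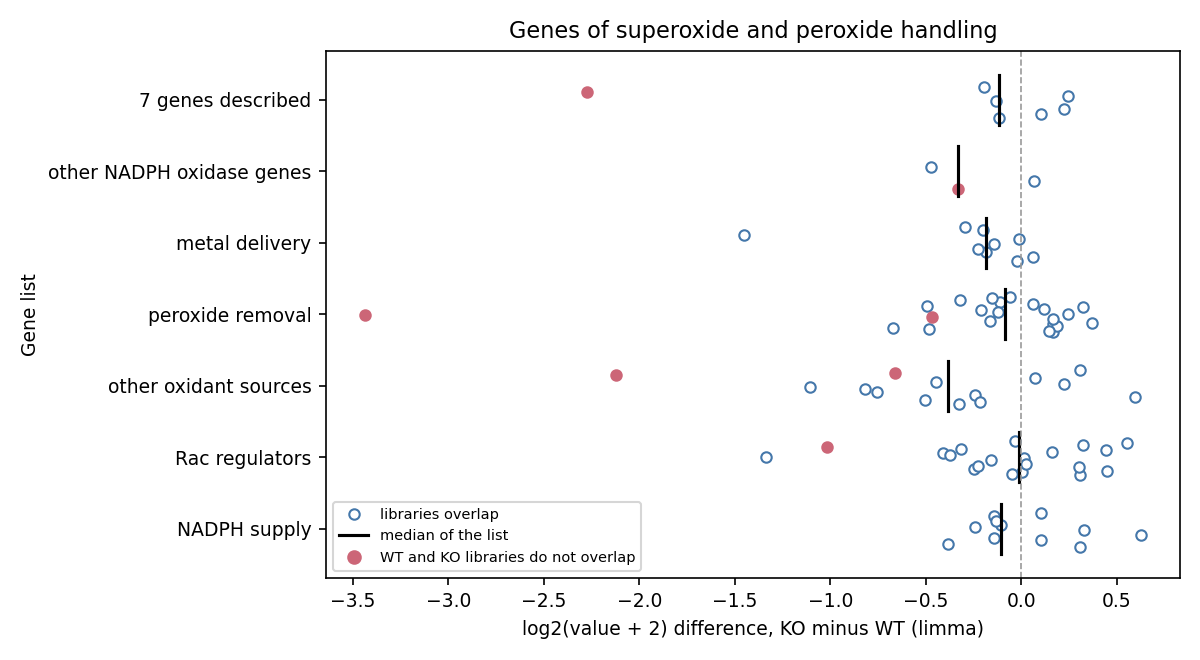
log2(value + 2) differences, KO minus WT, of the tested genes of the 7 lists; filled red points are genes whose WT and KO libraries do not overlap, open points the others, and black bars list medians. Sod3 (-2.27), Gpx3 (-3.44) and Maob (-2.12) lie apart from the rest of their lists, as does Slc39a8 (-1.45), whose libraries overlap.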

How the data were processed

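The deposited tables hold a scaled signal, estimated reads divided by a library factor, although one is named as raw counts. Low values were divided by an estimated value of a single read, 0.713 to 1.186 by library. That value was chosen to give the largest share near whole numbers. After this division between 86.4% and 96.2% of low values were within 0.05 reads of a whole number. The rest were not, so reads were not recovered. STAR, Partek and DESeq2 are named per the submitters' processing notes, without versions. The authors' deposited table gives a log2 ratio, a p-value with step-up FDR, a ratio and group signal means. limma 3.58.1 (R 4.3.3, statmod 1.5.0) was fitted on log2(value + 2) with genotype alone, trended and robust priors, for 12363 genes; 26 were left out. Group SDs are of scaled values. Deposited starts equal those of GENCODE M21 (GRCm38) for all 7 genes, and ends are given 1 base before the deposited stop. Same-numbered libraries deviated together (correlations 0.43, 0.15 and 0.39), though no label says what a number marks. Differences by same-numbered pairs are therefore shown beside the estimates, and a block for the number was fitted as an alternative. The main limma fit and the permutation tests did not use the pairs. The limma p-values set each group difference against the spread between these libraries, moderated over the genes tested. The permutation p-values set it against relabelled libraries.

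The members and lists were chosen with earlier results of these data known. Named were the 7 genes, Lrrc8a, in each other list the 3 highest genes and any at an unadjusted p under 0.05, the 2 most alike genes per member, and defining markers. Cybc1, Slc39a8 and the overlapping genes were added after their values were seen. Ero1l and Ero1lb were matched by RefSeq synonym. Alternatives were 4 other scalings, pseudocounts of 1 and 10, filters, the other table, plain priors, library weights, a block for replicate number, and fits that lacked a library. The fit was tested on simulated data.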

Additional observations from a re-analysis of the deposited data

How the results depend on the processing

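The log2 difference of Sod3 was below 0 under all 13 other settings (-2.28 to -2.21) and without each library (-2.61 to -1.88) and passed an adjusted p of 0.05 with library weights (0.0360) and under none of the others. With library weights limma called 6 genes higher and 24 lower, among them Sod3 (-2.21) and Lrrc8a (-1.62, adjusted p = 0.0450); with the replicate block and weights it called 1 higher and 4 lower. The replicate block alone gave 0 calls with 917 genes at an unadjusted p under 0.05 and a Sod3 difference of -2.27 at an adjusted p of 0.420, and changed no call. Leaving out single libraries gave 0 to 1 genes lower; the 1 came without KO replicate 1 and was not Sod3. With weights the signs of Sod1 (0.040), Nox4 (-0.057) and Cyba (-0.031) turned, that of Nox4 also with weights and block (-0.015), and the median of other oxidant sources was -0.46; the cause was not tested. Leaving out libraries gave Nox4 -0.061 to 0.24, Cyba -0.24 to 0.56 and Poldip2 -0.26 to 0.018. List medians ranged from -0.22 to 0.088 (peroxide removal), -0.68 to -0.24 (other sources) and -0.16 to 0.062 (NADPH supply). Log2 ratio differences ranged from -0.19 to 0.048 (Sod2 to Sod1), -0.33 to 0.17 (Nox4 to Cyba), -0.55 to 0.052 (Poldip2 to Cyba) and -0.35 to 0.57 (Rac1 to Cyba), against -2.61 to -1.72 for Sod3 to Sod1. What depth limits was not tested.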
